A study of Mus musculus with 9 samples.

Results

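The BBSome is a complex of 8 protein subunits, encoded in the mouse by Bbs1, Bbs2, Bbs4, Bbs5, Bbs7, Ttc8, Bbs9 and Bbip1, and it is recruited to membranes by the small GTPase Arl6. These 9 genes, out of 43629 in the deposited counts, were followed by their rows in the count table in frontal cortex of Neat1-/- and wild-type (WT) mice, and all 9 were among the 19753 genes that passed a filter on low counts and were tested. The set was chosen by the difference of Bbs1 between the genotypes, which was already known, so genotype differences of the members are given as a description and with no p, and a count of members past a threshold restates that choice. The BBSome coats vesicles and moves membrane proteins, among them G protein-coupled receptors, into and out of the primary cilium, the single antenna-like organelle that most cortical neurons and astrocytes carry. It rides on intraflagellar transport trains, and loss of its subunits in humans causes Bardet-Biedl syndrome, with retinal degeneration, obesity, kidney defects and learning difficulties. Mouse neurons without a working BBSome fail to place receptors such as Sstr3 in their cilia.

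RNA depleted of ribosomal RNA was sequenced from the frontal cortex of 4 Neat1-/- mice aged 3, 3, 4 and 2 months (replicates 1, 3, 4 and 5) and 5 WT mice aged 2, 2, 3, 4 and 4 months (replicates 1 to 5). All 9 mice were C57BL/6 females, with 1 library each. The Neat1-/- allele, from a RIKEN line, carries lacZ with polyadenylation signals placed just behind the point where Neat1 transcription begins, in every cell of the body. It is a single line whose mice differ from WT at least by the inserted cassette and by the missing RNA. These, and any other difference that comes with the allele or its stretch of chromosome 19, cannot be told apart here. Neat1, a nuclear long noncoding RNA, lies on chromosome 19, as do Bbs1 and Bbip1.

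Total counts were 52629603 to 64648856 in Neat1-/- libraries and 51276067 to 62819932 in WT libraries. Levels are TMM-normalized CPM, which are counts scaled to a common library total, and each member had between 917 and 4510 counts in every library. Neat1 RNA was at 8.14 ± 1.18 CPM in Neat1-/- mice and 81.5 ± 23.0 CPM in WT mice (SD, n = 4 and n = 5, log2 fold change -3.33, SE 0.19, adjusted p = 1.27e-06, edgeR), and the groups did not overlap, as the labels state. Cortical tissue was seen in the summed level of 8 neuronal markers, 8437 to 8828 CPM in Neat1-/- mice and 8242 to 8641 CPM in WT mice. WT replicates 3 and 4 had the highest TMM factors, 1.02 and 1.01, and values without them are given beside the main result. WT replicate 3 also held 117 CPM of 7 choroid plexus markers, against 15.2 to 26.9 CPM in Neat1-/- mice and at most 25.2 CPM in the other WT mice.

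Promoter sequence is shown for the members whose promoter window holds the core of an X-box, the motif by which RFX transcription factors mark many ciliary genes. The windows run from 250 bases before to 50 bases after each annotated start and come from RefSeq on GRCm38.p6, where 10 windows matched the 9 members. The letters GTTGCC, searched on both strands, stood in windows of 3 members, Bbs1, Bbs5 and Bbs7, and in 12.5% of all 32851 windows. Each line gives 30 bases on the gene's own strand, 5′ to 3′, with GTTGCC in capitals.
Bbs1 (chr19:4906605-4906634, minus strand): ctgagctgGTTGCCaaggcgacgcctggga
Bbs7 (chr3:36613489-36613518, minus strand): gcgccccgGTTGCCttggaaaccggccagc
Bbs5 (chr2:69647191-69647220, plus strand): gatgtcgtgacaaagccggcgcGTTGCCtt

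Counted from the RefSeq start, the first capital in Bbs1 is base 2 of the transcript, in Bbs5 it is base 43, and in Bbs7 it lies 121 bases before the start. The pattern GTTGCCNNGG, which was picked after the sequences had been read and contains the shorter core, was found in Bbs1 and Bbs7 and in 2.25% of all windows. The looser GTTNCC was found in 5 members, with Bbip1 and Bbs4 added to the 3 above, and in 45.3% of windows. The pattern searched as the full palindromic X-box was found in no member window and in 0.25% of all windows. This pattern was narrower than a core facing a second, inverted core, which the Bbs7 line holds. There the capitals are followed, after 2 bases, by the looser core on the opposite strand. Looser forms of the full X-box were not searched, so the members and windows that hold them were not counted. These are matches of letters, and binding was not measured.

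Bbs1 was the member with a lower level in Neat1-/- cortex. Its product docks the complex onto Arl6 at the membrane, and its gene (ENSMUSG00000006464) spans chr19:4886878-4906628 on the minus strand of GRCm38, 918 kb from Neat1. Bbs1 was at 47.2, 46.5, 49.3 and 51.2 CPM in the 4 Neat1-/- mice, against 61.0, 61.2, 56.4, 62.2 and 58.4 CPM in the 5 WT mice. Every Neat1-/- mouse lay below every WT mouse, and 5.17 CPM separated the highest Neat1-/- value from the lowest WT value, that of WT replicate 3. The means were 48.6 ± 2.1 CPM in Neat1-/- mice and 59.9 ± 2.4 CPM in WT mice (SD, n = 4 and n = 5), a log2 fold change of -0.30 with an SE of 0.042 and a 95% interval of -0.39 to -0.21, or 18.9% lower (interval 13.7% to 23.8% lower, from the same edgeR fit with age in months). Without WT replicates 3 and 4 the log2 fold change was -0.30 with an SE of 0.040.

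**Figure D1:**
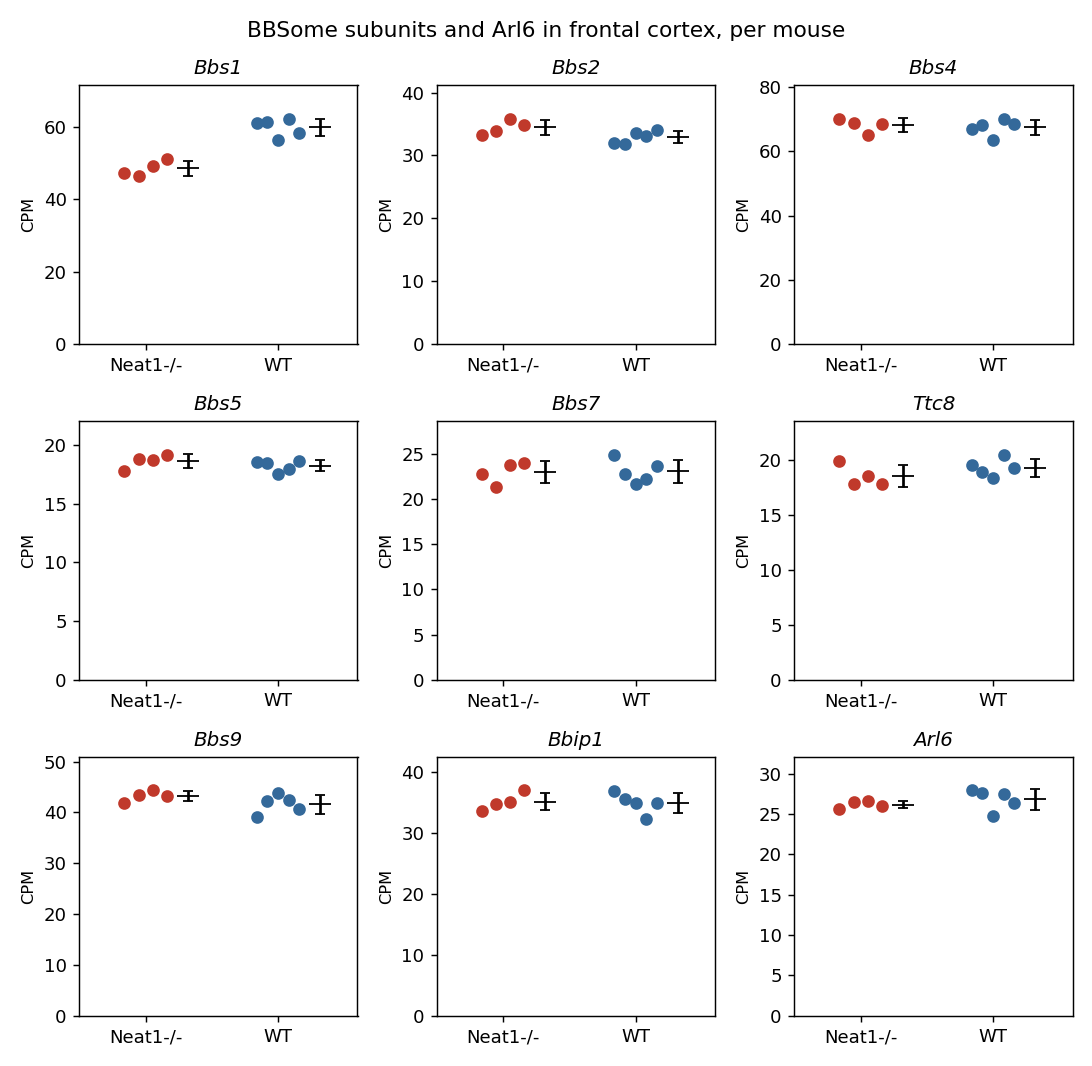
TMM-normalized CPM of each of the 9 genes, 1 dot per mouse, with Neat1-/- mice left (red) and WT mice right (blue), and the mean and SD as a cross and bar beside each group. The axes start at 0, and in the panel of Bbs1 the Neat1-/- dots (46.5 to 51.2) lie below the WT dots (56.4 to 62.2), whereas the groups overlap in the other 8 panels.

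The plot of levels by mouse shows the same 9 libraries in every panel, and WT replicate 3 was the lowest WT mouse in 6 of them. In bulk tissue, fewer cells that express a gene and less RNA per cell cannot be told apart, here and in all values that follow. The labels do not state whether counting used the strand. Bbs1 shares 110 bp with the snRNA gene Gm25334 on the opposite strand, which collected 75 counts over all 9 libraries.

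The authors' own normalized values, on a log2 scale with covariates removed by them, gave the same split for Bbs1. They were 5.64, 5.62, 5.73 and 5.73 in Neat1-/- mice, against 5.98, 5.99, 5.89, 6.04 and 5.98 in WT mice. The highest Neat1-/- value was thus below the lowest WT value on this scale too, and the means, 5.68 and 5.98 (SD 0.055 and 0.053), differed by -0.29. These values come from the same libraries in which the difference of Bbs1 chose the members, so they are not separate support.

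Arl6 (chr16:59612949-59639391, minus strand), the GTPase that brings the BBSome to membranes and binds Bbs1, did not share this pattern. It was at 25.6, 26.5, 26.6 and 26.0 CPM in Neat1-/- mice, against 27.9, 27.6, 24.7, 27.5 and 26.4 CPM in WT mice. All Neat1-/- values fell inside the WT range, and the log2 fold change was -0.036 (SE 0.046, interval -0.14 to 0.064). Arl6 overlaps 2447 bp of 4930547E14Rik, on the opposite strand, for which no counts were used here.

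Bbs9, Bbs2 and Bbs7 form the core on which the other subunits assemble. Bbs9 (chr9:22475715-22888280, plus strand) was at 41.9, 43.5, 44.3 and 43.3 CPM in Neat1-/- mice, against 39.0, 42.2, 43.8, 42.4 and 40.6 CPM in WT mice. Bbs2 (chr8:94067954-94098928, minus strand) was at 33.2, 33.9, 35.9 and 34.8 CPM in Neat1-/- mice, against 32.04, 31.9, 33.6, 33.1 and 34.0 CPM in WT mice. These were the members with the largest positive log2 fold changes, 0.056 for Bbs9 (SE 0.041, interval -0.032 to 0.14) and 0.066 for Bbs2 (SE 0.038, interval -0.016 to 0.15), and in each the groups overlapped. Bbs7 (chr3:36573142-36613477, minus strand), whose protein pairs with that of Bbs2, was at 22.8, 21.3, 23.8 and 24.0 CPM in Neat1-/- mice, against 24.9, 22.8, 21.7, 22.3 and 23.6 CPM in WT mice. Its group means, 23.0 ± 1.2 and 23.1 ± 1.3 CPM, differed by less than their SDs (n = 4 and n = 5), and its log2 fold change was -0.0061 (SE 0.054, interval -0.12 to 0.11).

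Bbs4 and Ttc8, also called Bbs8, carry tetratricopeptide repeats, and Bbs4 ties the complex to centriolar satellites through Pcm1. Bbs4 (chr9:59321990-59353508, minus strand) was the member with the most counts, at 70.2, 68.9, 65.1 and 68.6 CPM in Neat1-/- mice, against 67.1, 68.1, 63.5, 70.1 and 68.6 CPM in WT mice. The values of the genotypes were intermixed, and the log2 fold change was 0.015 (SE 0.038, interval -0.066 to 0.097). Bbs4 overlaps 2063 bp of Adpgk on the opposite strand, a kinase gene with a log2 fold change of -0.11 (SE 0.058, adjusted p = 0.639, edgeR). Ttc8 (chr12:98920574-98983238, plus strand) was at 19.9, 17.8, 18.6 and 17.8 CPM in Neat1-/- mice, against 19.5, 18.9, 18.3, 20.5 and 19.2 CPM in WT mice. It had the most negative log2 fold change after Bbs1, -0.058 (SE 0.053, interval -0.17 to 0.056), and its groups overlapped.

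Bbs5 binds phosphoinositide lipids, and Bbip1 is the smallest subunit, a short protein that joins others within the complex. Bbs5 (chr2:69647171-69667571, plus strand) was at 17.7, 18.8, 18.7 and 19.2 CPM in Neat1-/- mice, against 18.5, 18.5, 17.5, 17.9 and 18.6 CPM in WT mice (log2 fold change 0.030, SE 0.047, interval -0.072 to 0.13). Bbip1 (chr19:53929861-53944627, minus strand) was at 33.7, 34.8, 35.1 and 37.0 CPM in Neat1-/- mice, against 36.9, 35.7, 35.0, 32.3 and 34.9 CPM in WT mice. Although on the same chromosome as Neat1 and Bbs1, Bbip1 lies 48.1 Mb from Neat1, and its log2 fold change was 0.0081 (SE 0.041, interval -0.080 to 0.096). Its 322 bp of overlap with Shoc2 are on the opposite strand, and Shoc2 had a log2 fold change of 0.047 (SE 0.036, adjusted p = 0.731, edgeR).

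Across the 8 members other than Bbs1, log2 fold changes ran between -0.058 and 0.066, with 5 positive and 3 negative. All 8 intervals of the edgeR fit held 0. Their outermost bounds, -0.17 and 0.15, correspond to 11.3% lower and 10.9% higher, and differences of up to that size lie within the intervals. With the deposited normalized values, Bbs9 was at 0.084 (SE 0.029) and Bbs2 at 0.068 (SE 0.028), with smaller SEs than in edgeR. These 2 were the furthest from 0 of the 8 there, and each was more than 2 SEs from 0, unlike in edgeR. That fit had a genotype term alone, on values from which the authors had already removed covariates. Its SEs do not count that removal and can be too small. Without WT replicates 3 and 4 the log2 fold changes of these 8 genes lay between -0.059 (Arl6 and Ttc8) and 0.085 (Bbs9), and that of Bbip1 was -0.020. The spread between mice of a genotype was 1.7% to 5.5% of the mean for the 9 members. Of the 9 members, 1 (Bbs1, the gene behind the choice) was past an adjusted p of 0.05 in edgeR, and 0 were when WT replicate 1, WT replicate 2, Neat1-/- replicate 1 or Neat1-/- replicate 3 was left out. Over the 19753 genes, 0.0709% were past it and 0.0253% were past it and lower. At an unadjusted p under 0.05 none of the other 8 members passed, where 8.3% of all genes did. Groups did not overlap in 1 of the 9 members, against 2.67% of all genes in either direction and 1.01% with Neat1-/- below WT. Because the genotype contrast chose the members, nothing is read from these counts. The median log2 fold change was 0.0081 over the 9 members and 0.012 without Bbs1, and over all genes tested it was -0.00023.

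**Figure D2:**
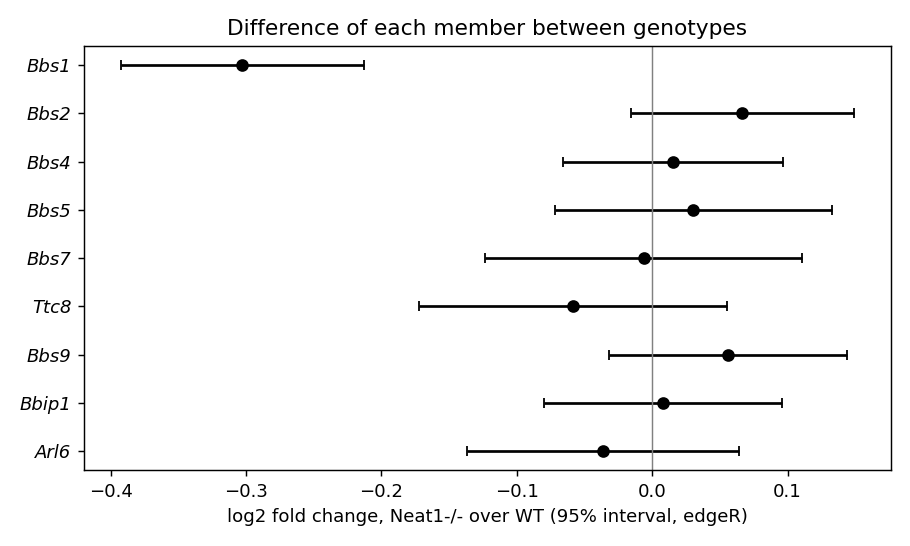
Log2 fold change of Neat1-/- over WT for each member (dots) with its 95% interval (bars) from the edgeR fit with age, and a vertical line at 0. The interval of Bbs1 runs from -0.39 to -0.21, and the intervals of the other 8 genes all cross 0.

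The plot of fold changes puts the members on 1 scale. The upper bound for Bbs1, -0.21, lies below the lowest bound of any other member, -0.17 for Ttc8, a place that the choice by this difference favours.

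The amount of Bbs1 RNA relative to the remaining members was lower in Neat1-/- mice, which restates the difference of Bbs1 as a ratio. Per 100 counts of the other 8 genes, Bbs1 had 17.8, 17.5, 18.4 and 18.9 counts in Neat1-/- mice, against 23.0, 23.1, 21.9, 23.4 and 22.0 counts in WT mice. The groups were apart in this ratio, with means of 18.2 ± 0.63 and 22.6 ± 0.69 (SD, n = 4 and n = 5), and the ratio does not depend on the scaling of libraries. It uses the same Bbs1 counts behind the choice of members, so it is not separate support. Summed over the 8 other genes, the level was 267 ± 2.6 CPM in Neat1-/- mice and 264 ± 3.5 CPM in WT mice. WT replicate 3 had the lowest sum, 258 CPM, and all other mice lay between 265 and 271 CPM.

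Levels of different genes were compared per kilobase of annotated exon (CPM per kb). In Neat1-/- mice Arl6 ranked first, at 12.5 ± 0.22 CPM per kb, against 12.8 ± 0.63 in WT mice. Bbs4 followed with 11.3 ± 0.36 in Neat1-/- mice and 11.2 ± 0.41 in WT mice, and Bbs2 with 10.4 ± 0.35 in Neat1-/- mice and 9.94 ± 0.28 in WT mice. Bbs7 ranked last, at 4.26 ± 0.22 CPM per kb in Neat1-/- mice and 4.28 ± 0.23 in WT mice. Bbs4 and Bbs2 were neighbours whose ranges met in Neat1-/- mice (10.77 to 11.62 and 10.03 to 10.83) but not in WT mice (10.51 to 11.60 and 9.62 to 10.27).

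Bbs1 was at 6.33 ± 0.28 CPM per kb in Neat1-/- mice and 7.80 ± 0.31 in WT mice. It ranked 7 of 9 in Neat1-/- mice and 5 of 9 in WT mice. In WT mice, Bbip1 (7.94 ± 0.38), Bbs1 and Bbs5 (7.45 ± 0.19) did not differ beyond their spread, as the ranges of neighbours in the order met. In Neat1-/- mice, Bbip1 (7.99 ± 0.32) and Bbs5 (7.61 ± 0.25) overlapped, and the highest Bbs1 value, 6.68, was just below the lowest Bbs9 value, 6.71. Bbs9 averaged 6.93 ± 0.16 CPM per kb in Neat1-/- mice and 6.66 ± 0.29 in WT mice, and Ttc8 averaged 4.90 ± 0.26 in Neat1-/- mice and 5.10 ± 0.21 in WT mice. The order rests on the length used. With the longest annotated transcript of each gene as its length, Bbs4 came first at 18.2 CPM per kb in Neat1-/- mice and 18.0 in WT mice, and Bbs1 ranked 7 in each genotype, at 8.67 in Neat1-/- mice and 10.7 in WT mice.

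**Figure D3:**
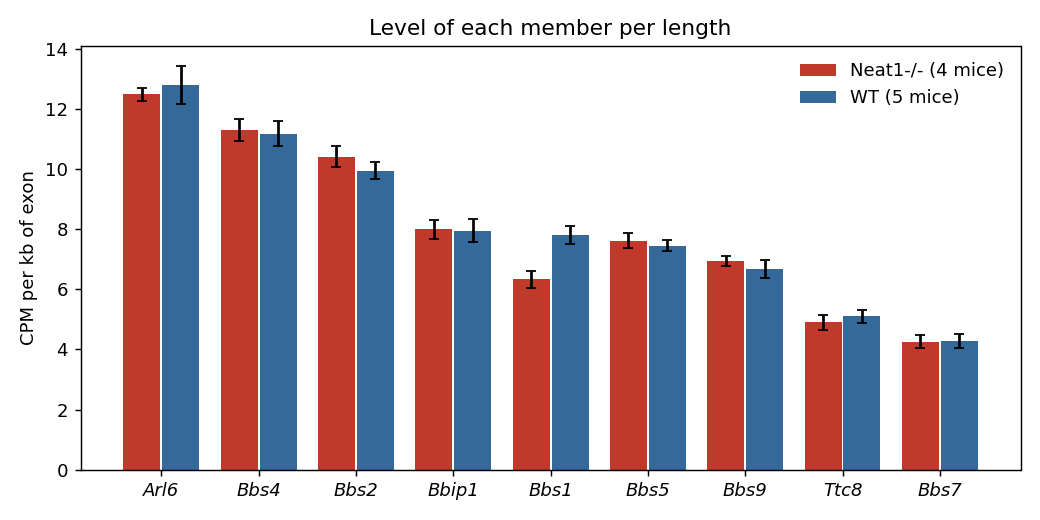
Mean CPM per kilobase of exon for each member in Neat1-/- mice (red, left bar) and WT mice (blue, right bar), with the SD over 4 and 5 mice as error bars, ordered by the WT level. Bbs1 is the gene whose bars stand furthest apart, at 6.33 and 7.80.

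The bars of per-length level place the lower Bbs1 level among its partners, and the order of the 8 other genes was the same in each genotype.

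Age, which the choice of members did not use, was tested as a change per month in the same fit. None of the 9 members was called for age at an adjusted p under 0.05 or at an unadjusted p under 0.05, and over all genes tested 0% and 5.98% passed (edgeR). DESeq2 and limma called 0 members as well. Coefficients ran between -0.049 log2 per month for Bbip1 (95% interval -0.10 to 0.0046, adjusted p = 0.8205, the lowest of the 9) and 0.030 for Bbs2, with the outermost bounds at -0.10 and 0.095. For Bbs1 the coefficient was -0.016 log2 per month (SE 0.025, adjusted p = 0.923). Ages spanned only 2 to 4 months.

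The members were also compared with each other across libraries. The plain Pearson correlation of log2 CPM over the 9 libraries had a median of 0.019 over the 36 pairs, and -0.028 over the 8 pairs with Bbs1. After removing genotype and age, the median over the 36 pairs was 0.24, between -0.69 for Bbs2 with Ttc8 and 0.78 for Bbs2 with Bbip1, and 21 pairs were above 0. For the 8 pairs with Bbs1 the median after removal was 0.33, and Arl6 was the member closest to it, at 0.64. The median of the pairs thus differed between the measures. These are descriptions over 9 libraries that were normalized together, and no p is given.

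Among all genes tested, those whose level across the 9 libraries was most like that of Bbs1 were named by Pearson's r of log2 CPM, a measure that includes the genotype difference for which Bbs1 was chosen and so favours genes that differ between genotypes. The highest were Ehd1 (r = 0.967), a membrane-trafficking ATPase gene, Ints10 (0.956), Cd6 (0.956), 2700081O15Rik (0.944) and Arhgap4 (0.939). Of these, Ehd1, Cd6 and 2700081O15Rik lie on chromosome 19, as do Neat1 and Bbs1, whereas Ints10 lies on chromosome 8 and Arhgap4 on X. After removing genotype and age, r with Bbs1 was 0.77 for Ehd1, 0.89 for Ints10, 0.61 for Cd6, 0.38 for 2700081O15Rik and 0.71 for Arhgap4. Because the genes were picked by plain r, which also holds the spread within genotypes, r after removal is not free of that choice. Ehd1 was at 25.6 ± 0.78 CPM in Neat1-/- mice and 28.8 ± 0.84 CPM in WT mice, and Cd6 was at 0.42 ± 0.06 CPM in Neat1-/- mice and 3.68 ± 0.48 CPM in WT mice. Running opposite to Bbs1 were Csrnp2 (r = -0.968), Frmd8os (-0.960), Frmd8 (-0.947), Rps6kl1 (-0.944) and A930017M01Rik (-0.943). Frmd8os and Frmd8 lie on chromosome 19, Csrnp2 and A930017M01Rik on chromosome 15 and Rps6kl1 on chromosome 12. After removal, r was -0.84 for Csrnp2, -0.60 for Frmd8os, -0.22 for Frmd8, -0.74 for Rps6kl1 and -0.78 for A930017M01Rik. Frmd8 was at 43.5 ± 1.3 CPM in Neat1-/- mice and 15.4 ± 1.3 CPM in WT mice.

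The stretch of chromosome 19 around Bbs1 was examined gene by gene. Of the 13 tested genes within 100 kb of either end of Bbs1, none was called (edgeR, lowest adjusted p = 0.342), and 4 were below 0.05 before adjustment, a share of 30.8% where all genes had 8.3%. Ctsf, encoding the lysosomal protease cathepsin F, was at 60.1, 59.3, 55.8 and 62.2 CPM in Neat1-/- mice, against 56.1, 50.7, 49.4, 46.6 and 54.7 CPM in WT mice (log2 fold change 0.20, SE 0.049, adjusted p = 0.342). Only WT replicate 1 reached into the Neat1-/- range. Ccs, the copper chaperone of superoxide dismutase, was at 13.8, 13.0, 12.7 and 13.2 CPM in Neat1-/- mice, against 11.5, 11.1, 11.5, 10.4 and 11.3 CPM in WT mice (log2 fold change 0.24, SE 0.058, adjusted p = 0.352), with no overlap.

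Mrpl11, a mitochondrial ribosomal protein gene, was the neighbour that passed at an unadjusted p in the direction of Bbs1. It was at 30.4, 30.1, 31.1 and 30.4 CPM in Neat1-/- mice, against 33.1, 34.8, 32.5, 32.6 and 34.4 CPM in WT mice (log2 fold change -0.14, SE 0.039, adjusted p = 0.453), with no overlap. Dpp3, a dipeptidyl peptidase gene that ends 0.601 kb from the start of Bbs1, was at 44.6 ± 1.6 CPM in Neat1-/- mice and 41.1 ± 3.2 CPM in WT mice (log2 fold change 0.12, SE 0.049, adjusted p = 0.581). Zdhhc24, a palmitoyltransferase gene 1.48 kb from the other end, was at 18.3 ± 0.45 CPM in Neat1-/- mice and 18.0 ± 0.84 CPM in WT mice (log2 fold change 0.026, interval -0.082 to 0.13, adjusted p = 0.903). The genes on either side of Bbs1 thus had positive log2 fold changes, of which neither passed the adjusted test. The others had log2 fold changes of 0.064 (Peli3), -0.055 (Rbm14), -0.11 (Gm21992), -0.20 (Actn3), -0.25 (Gm21844), -0.25 (Rbm4), -0.29 (Ccdc87) and -0.34 (Npas4, an immediate early gene of neurons). Ctsf was called with DESeq2, with no filter on low counts or without WT replicate 5, Ccs and Mrpl11 were called with the deposited normalized values, and none was called with limma or without WT replicates 3 and 4.

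**Figure D4:**
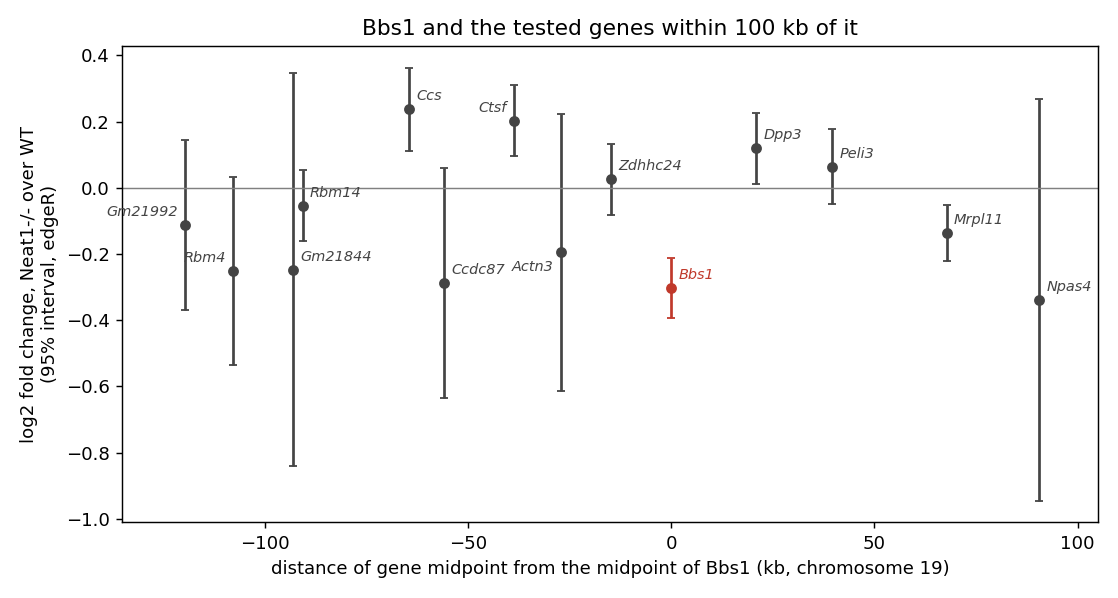
Log2 fold change of Neat1-/- over WT with its 95% interval (edgeR) for Bbs1 (red) and the 13 tested genes with an end within 100 kb of it (grey), by distance between gene midpoints in kb. Bbs1 lies at -0.30, and Zdhhc24 and Dpp3, the genes next to it, lie at 0.026 and 0.12.

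The plot of the region shows wide intervals for the genes of low level, such as Gm21844, Ccdc87 and Actn3, and for Npas4, whose values varied between mice by 53.2% of the mean in Neat1-/- mice and 47.0% in WT mice. It shows intervals narrower than that of Ctsf for Bbs1 and Mrpl11. Positive and negative values, 5 and 8, were mixed along the stretch. Gm21992 spans Rbm4, Rbm14 and Gm21844 in position, and counts of these 4 genes are uncertain for that reason.

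The machinery that builds and uses the BBSome was read from 9 lists with 77 genes in all, of which 75 were tested. None was called (edgeR, lowest adjusted p = 0.543, and none with DESeq2, limma or without WT replicates 3 and 4), and at an unadjusted p under 0.05 1 was higher and 1 lower, 2.67% of the 75 against 8.3% of all genes. Their median log2 fold change was 0.0072, beside -0.00023 over all genes. The 9 chaperonin genes that fold the core of the complex had 0 called, 0 at the unadjusted threshold and a median log2 fold change of 0.0026. Mkks was at 35.5 ± 1.1 CPM in Neat1-/- mice and 36.1 ± 3.1 CPM in WT mice, Bbs10 at 7.62 ± 0.57 CPM in Neat1-/- mice and 7.62 ± 0.60 CPM in WT mice, and Bbs12 at 5.38 ± 0.64 CPM in Neat1-/- mice and 5.63 ± 0.57 CPM in WT mice. Tcp1 and Cct8, subunits of the general cytosolic chaperonin, had log2 fold changes of 0.041 and 0.0026.

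Lztfl1, a partner that restrains entry of the BBSome into cilia, was at 69.8 ± 1.1 CPM in Neat1-/- mice and 73.4 ± 3.6 CPM in WT mice (log2 fold change -0.073, SE 0.039, adjusted p = 0.639). In its list, 9 of 10 further Bardet-Biedl genes were matched and tested, 0 passed at either threshold and the median log2 fold change was 0.0093. The highest-expressed were Trim32, a ubiquitin ligase (log2 fold change 0.057), and Ift172 (log2 fold change 0.0040). The 7 genes of Rab8 and of the centriolar satellites, where the complex gathers before it enters the cilium, had 0 passing and a median log2 fold change of 0.033, with Dctn1 at 0.0011 and Pcm1, the satellite scaffold, at 0.058.

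Intraflagellar transport trains carry the BBSome along the cilium. Of 17 tested IFT-B genes, which serve outward transport, 0 were called, the median log2 fold change was 0.0040 and that of Ift81 was 0.040. Ttc26 was lower at the unadjusted threshold, at 14.01 ± 0.79 CPM in Neat1-/- mice and 15.4 ± 1.0 CPM in WT mice (log2 fold change -0.13, SE 0.056, adjusted p = 0.587). The 6 IFT-A genes, which serve the return, had 0 passing and a median log2 fold change of -0.020, with Wdr35 at 0.022 and Ift122 at -0.017. The 8 genes of the kinesin and dynein motors had 0 passing and a median log2 fold change of 0.011, with Kifap3 at 0.0049 and Kif3a at 0.027.

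Among 9 receptors that sit in cilia, the cargo of this transport, 0 were called and the median log2 fold change was 0.030. Sstr3, the somatostatin receptor of neuronal cilia, was at 39.0, 38.8, 38.4 and 39.6 CPM in Neat1-/- mice, against 38.9, 37.9, 34.8, 34.9 and 34.2 CPM in WT mice. WT replicate 1 lay within the Neat1-/- values and the other 4 WT mice below them, and the log2 fold change of 0.11 (SE 0.037, adjusted p = 0.543) passed only the unadjusted threshold. Ptch1, the Hedgehog receptor, had a log2 fold change of 0.0072. The 7 ciliary membrane genes had 0 passing and a median log2 fold change of 0.013, with Adcy3, the adenylyl cyclase of neuronal cilia, at -0.055 and Arl3 at 0.036. The 6 ciliary transcription factor genes, RFX factors and Foxj1, had 0 passing and a median log2 fold change of -0.070, with Rfx3 at -0.036 and Rfx7 at -0.046.

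**Figure D5:**
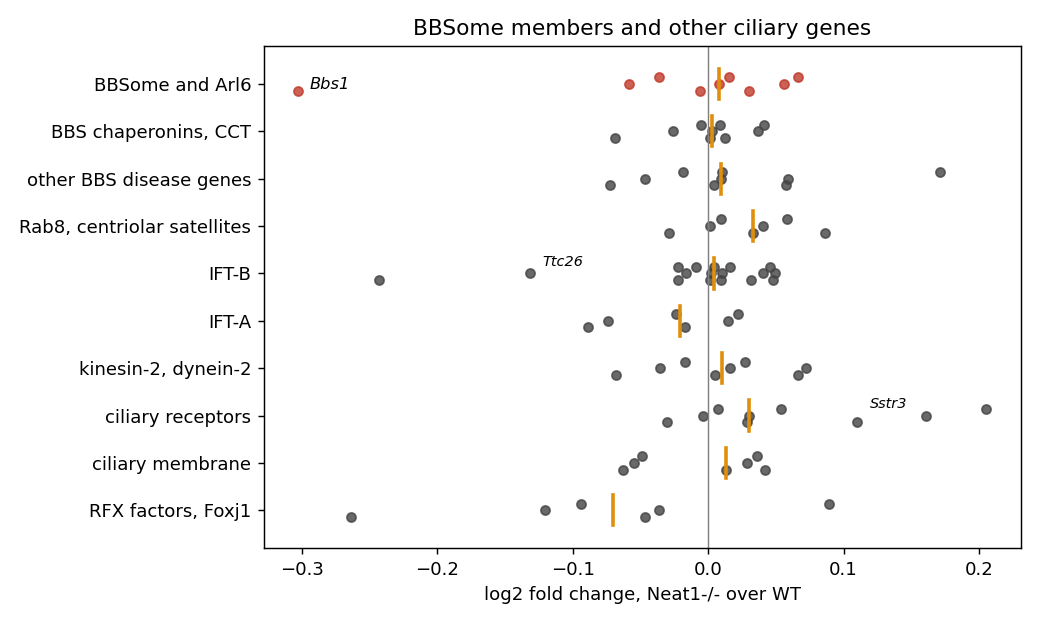
Log2 fold change of Neat1-/- over WT for the 9 BBSome genes (red, top row) and for the genes of 9 lists of related ciliary function (grey), 1 dot per gene, with the median of each row as an orange bar. Row medians lie between -0.070 and 0.033, Bbs1 lies at -0.30, and Ttc26 and Sstr3, the genes past the unadjusted threshold, are named.

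The plot of lists shows Bbs1 left of every gene in the 9 lists, the nearest being Rfx2 at -0.26 (0.90 CPM in Neat1-/- mice and 1.07 CPM in WT mice). The choice of Bbs1 by its difference favours that place. Markers of cell types were read beside Bbs1. None of the genes of 12 marker lists was called (edgeR). Counts of markers at an unadjusted p under 0.05 are given below, and 8.3% of all genes tested passed that threshold. All 8 oligodendrocyte markers had negative log2 fold changes, with a median of -0.28 and 4 lower at an unadjusted p under 0.05, and their summed level was 1841 to 2816 CPM in Neat1-/- mice and 2154 to 3357 CPM in WT mice. Of 6 progenitor markers 3 were lower and 1 higher at that threshold and the sum, carried mainly by Bcan and Pdgfra, was 340 to 369 CPM in Neat1-/- mice and 338 to 385 CPM in WT mice. Among the 3, Olig1 and Olig2, lineage transcription factors singled out after their values were seen, did not overlap between genotypes. Nor did the glutamatergic marker Tbr1 and the microglial marker C1qa, both higher in Neat1-/- mice (log2 fold changes 0.088 and 0.17). Of all genes tested, 2.67% did not overlap in either direction. Olig1 was at 36.6, 31.5, 33.6 and 38.4 CPM in Neat1-/- mice, against 46.7, 41.3, 40.1, 40.7 and 41.3 CPM in WT mice (log2 fold change -0.26, SE 0.055, adjusted p = 0.222, edgeR). Olig2 was at 11.4, 9.51, 11.6 and 13.2 CPM in Neat1-/- mice, against 14.9, 13.8, 16.4, 15.4 and 14.97 CPM in WT mice (log2 fold change -0.40, SE 0.087, adjusted p = 0.264, edgeR). Of 7 choroid plexus markers all had negative values and 2 were lower before adjustment. Their sum was 117 CPM in WT replicate 3, but at most 25.2 CPM in the other WT mice and 15.2 to 26.9 CPM in Neat1-/- mice. Of 12 markers of ependymal cells and motile cilia none passed (23.0 to 32.8 CPM in Neat1-/- mice and 26.6 to 35.0 CPM in WT mice). Of the markers in the other 8 lists, 1 neuronal marker was lower, and 1 glutamatergic, 1 astrocyte, 3 microglial and 2 striatal markers were higher, before adjustment. Astrocyte markers summed to 5167 to 5191 CPM in Neat1-/- mice and 4655 to 5343 CPM in WT mice. No marker was at 0 in all 9 libraries, though Tmem212, an ependymal marker, was at 0 in WT replicate 2. The summed levels of each list overlapped between genotypes, and the part of these cells in the difference of Bbs1 was not tested.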

How the data were processed

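For 9 RNA-seq libraries the authors deposited unnormalized counts of reads by Ensembl gene. They also deposited log2 values for 13456 genes, normalized and with covariates removed. The submitters' processing notes name STAR 2.5.0, HTSeq 0.8.0, limma and the mm10 genome. The supplementary methods name other aligners, and whether counting used the strand is not given in the sources used here. Counts were used as deposited, and 42548 of 43629 IDs were named from a GRCm38 annotation, which also gave positions and lengths. Every value column matched a sample by its label.

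Low counts were removed with filterByExpr. The quasi-likelihood fit of edgeR 4.0.16 in R 4.3.3 (functions glmQLFit, glmQLFTest) had terms for genotype and age in months, TMM scaling and all 9 libraries, with Benjamini-Hochberg adjustment over the 19753 genes at 0.05. Its common biological coefficient of variation came to 0.0922. Intervals are 95% intervals of the coefficient. Correlations used log2 CPM with a prior count of 2. The procedure was tested on simulated data. Alternatives were DESeq2 1.42.0, limma 3.58.1 (voomWithQualityWeights), other scalings, other filters, age left out or taken as a category, the replicate number as a block, fits without each library in turn or without WT replicates 3 and 4, and the deposited log2 values. Total counts were 51276067 to 64648856 per library. Each library is 1 mouse by its label, and p-values measure the spread between these mice.

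The members and gene lists were chosen with earlier results of these data known. Named genes were the members, Neat1, every tested gene within 100 kb of Bbs1, in each ciliary list the called genes or else the 2 of highest level, with Mkks, Bbs10, Bbs12 and Lztfl1, and the 5 genes most like and most opposite to Bbs1. Sstr3 falls under the rule, whereas Ttc26, Rfx2, Olig1, Olig2, Tbr1, C1qa and the genes that overlap members were singled out after their values were seen. Cfap418 could not be matched to an ID, and Ttc30a2 did not pass the filter.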

Additional observations from a re-analysis of the deposited data

How the results depend on the processing

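The log2 fold change of Bbs1 was between -0.33 and -0.27 in 21 alternatives. Leaving out each library in turn gave -0.33 to -0.28, and 0 to 1 members past the adjusted threshold, from which nothing is read since this contrast chose the members. The 168 values of the other members stayed between -0.10 and 0.085, and each moved by less than the SD between mice. Neighbours of Bbs1 called numbered 1 (Ctsf) with no filter on low counts, 1 (Ctsf) with DESeq2, 2 (Ccs and Mrpl11) with the deposited normalized log2 values and 0 to 1 with a library left out. The cause was not tested. The WT level of Bbs1 per kb was 10.7 with the longest transcript as its length, which is shorter than the exons together. Members called for age and ciliary list genes called were 0 under every alternative that was run.

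Replicate numbers are shared by the genotypes, but libraries with the same number did not deviate together (correlations 0.044, -0.045, 0.14 and -0.077 for numbers 1, 3, 4 and 5). A fit with the replicate block gave -0.31 for Bbs1, and 0 neighbours, 0 ciliary list genes and 0 members for age called, as without the block. Without WT replicates 3 and 4 the median plain Pearson correlation of member pairs over libraries, genotype and age not removed, was -0.058, against 0.019 with them.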

Other observations

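Some ciliary genes outside the naming rule had larger differences, and these were singled out after their values were seen. Hspb11, an IFT-B gene, was the 1 gene of the 75 whose groups did not overlap, where 2.67% of all genes tested did not. It was at 4.36, 4.13, 4.21 and 4.64 CPM in Neat1-/- mice, against 5.24, 4.65, 4.78, 6.32 and 4.67 CPM in WT mice (log2 fold change -0.24, SE 0.11, adjusted p = 0.602, edgeR). WT replicates 2 and 5 lay next to the highest Neat1-/- mouse. Drd1, the dopamine receptor, was at 18.3 ± 1.9 CPM in Neat1-/- mice and 15.9 ± 3.8 CPM in WT mice (log2 fold change 0.21, SE 0.12, adjusted p = 0.655, edgeR). The highest mouse was WT replicate 1, at 22.7 CPM. Drd1 is also 1 of the 8 striatal markers, of which 7 had positive and 1 negative log2 fold changes. Mks1, of the ciliary transition zone, was at 4.62 ± 0.23 CPM in Neat1-/- mice and 4.10 ± 0.19 CPM in WT mice (log2 fold change 0.17, SE 0.094, adjusted p = 0.644, edgeR). In Drd1 and Mks1 the groups overlapped.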
